A study of Drosophila melanogaster with 2 samples.

Results

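miR-957 and miR-999 are a pair of Drosophila melanogaster microRNAs that are described as a pair because both were among the most abundant hairpins of an adult central nervous system (CNS) library. They are 2 of the 174 hairpins counted in the study, found in the deposited count tables by the names mir-957 and mir-999, and both were read in both libraries. Since they were chosen on their adult reads, their levels and adult-to-larval ratios are given as descriptions.

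A microRNA is cut from a hairpin-shaped precursor, first by Drosha in the nucleus and then by Dicer in the cytoplasm, which leaves a short duplex with one strand from each arm of the hairpin. One strand is loaded into an Argonaute protein and guides it to messenger RNAs, mainly through its seed, the bases near its 5' end, and the other is usually degraded. The arm that supplies most reads is therefore usually the guide, and reads assigned to an arm that differ from its annotated mature form are called variants here. In flies, miR-957 has been tied to male courtship behaviour, and miR-999 is encoded inside CASK, a gene for a scaffold protein of synapses.

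The study sequenced small RNA from 1 larval and 1 adult library, each from about 100 pooled w[1118] Iso31 animals with similar numbers of males and females. This isogenic white-eyed genotype was common to both libraries, and adults and larvae came from the same vials, kept at 24 C. The larval tissue was the ventral ganglion with the optic lobes, without eye discs, from wandering animals of the third instar, and the adult tissue was the brain including its antennal lobes, taken when flies were 3 to 5 days old. Dissection and stage thus change together and cannot be told apart, there were no replicates, and no p-value was computed. Hairpin reads numbered 822500 for the larva and 1665159 for the adult, so 1 read was worth 1.22 and 0.601 RPM (reads per 1000000 hairpin reads). All intervals below are exact 95% intervals for counting error unless another is named. They do not cover the spread between animals, dissections or libraries, and without molecular identifiers PCR copies were counted as separate reads.

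The annotation places the precursors in different settings. The miR-957 hairpin lies on 3L from 22518196 to 22518291 on the minus strand of assembly BDGP6, and no other annotated gene overlaps it. Its nearest annotated gene, transposable elements aside, is lncRNA:CR45429, 7129 bases away on the plus strand. Its annotated 3' mature miRNA spans 22 bases (22518210 to 22518231) and its 5' mature miRNA 23 bases (22518255 to 22518277). The miR-999 hairpin lies on 3R from 21798227 to 21798331, also on the minus strand. It sits in an intron of all 8 annotated transcripts of CASK and has the strand of its host. Its mature miRNAs each span 22 bases, the 3' one from 21798249 to 21798270 and the 5' one from 21798287 to 21798308. The 3' mature miRNAs of the pair are equally long, and no correction for length was applied to any read count. A difference in level between them may depend on how well each ligates in library preparation, which was not tested.

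miR-957 was the 13th most abundant hairpin of the larval library and the 4th of the adult library. It had 10658 larval reads, a level of 12958 RPM (12715 to 13205). In the adult library it had 184563 reads, a level of 110838 RPM (110362 to 111316). Its share of all hairpin reads was thus 1.30% at the larval stage (1.27 to 1.32) against 11.1% at the adult stage (11.04 to 11.13). The adult level was 8.55 times the larval one (8.39 to 8.72). In pooled tissue such as this, more cells with a miRNA and more of it per cell cannot be told apart.

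miR-999 moved up from 15th to 8th place, with a smaller ratio. Its 8530 larval reads gave 10371 RPM (10153 to 10592) and its 65214 adult reads gave 39164 RPM (38870 to 39460). The share of the library was 1.04% at the larval stage (1.02 to 1.06) against 3.92% at the adult stage (3.89 to 3.95). The adult level was 3.78 times the larval one (3.69 to 3.86). In the authors' deposited table the larval and adult levels were also 12958 and 110838 RPM for miR-957, and 10371 and 39164 RPM for miR-999. The signed fold changes of the authors' deposited table, negative where the adult value is higher, were -8.55 and -3.78.

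**Figure D1:**
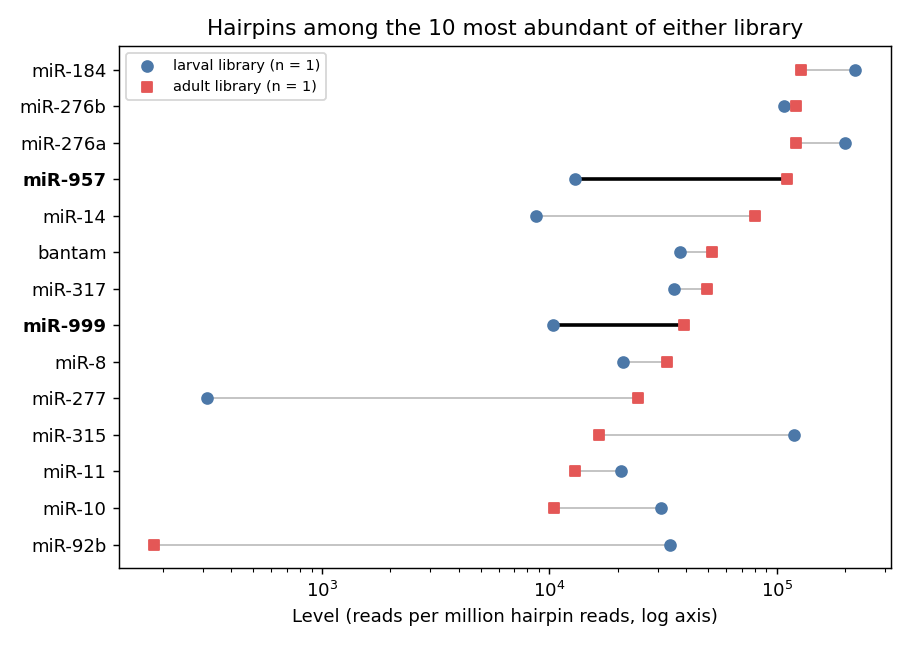
Level in RPM on a log axis of the 14 hairpins that were among the 10 most abundant of the larval library (blue circles) or the adult library (red squares), with 1 library per stage and a line joining the 2 values. The black lines mark miR-957, which went from 12958 to 110838 RPM, and miR-999, which went from 10371 to 39164 RPM.

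The 2 miRNAs stood close together in the larval library and apart in the adult one. There were 1.25 reads of miR-957 for each read of miR-999 in the larval library (1.21 to 1.29) against 2.83 in the adult one (2.80 to 2.86). The second ratio was 2.27 times the first, with a Wald interval on the log odds ratio of 2.20 to 2.33. This comparison within each library does not depend on how the libraries are scaled. Whether it would exceed the spread between replicate libraries cannot be known from 1 library per stage.

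The hairpins beside them in the order of levels were separated from them by more than counting error in each case. In the larval library miR-957 lay below miR-305 (20345 RPM) and miR-995 (16562 RPM) and above miR-9c (11769 RPM), a miRNA of the miR-9 family. miR-999 came directly after miR-9c and before miR-14 (8743 RPM), a regulator of fat metabolism and cell survival, and miR-275 (6562 RPM). Of these larval neighbours, miR-9c was the closest to miR-957, with 1.10 reads of miR-957 for each read of miR-9c (1.07 to 1.13). In the adult library miR-957 followed miR-276b (121896 RPM) and miR-276a (121157 RPM), the latter a miRNA of olfactory memory. In that order, miR-957 had 0.909 and 0.915 times their reads. Below it came miR-14 (79931 RPM) and bantam (51936 RPM), a promoter of tissue growth. miR-999 lay in the adult library between miR-317 (49250 RPM) and miR-8 (32762 RPM), of which it had 0.795 times (0.787 to 0.803) and 1.20 times (1.18 to 1.21) the reads. The order of the larval library was thus miR-957, miR-9c, miR-999 and miR-14, and in the adult library miR-14 stood above miR-999.

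Of the 114 hairpins with enough reads to compare, 40.4% were called higher in the adult library, which means a ratio of at least 2 with an interval that excludes 1, and 24.6% higher in the larval library by the same rule. Both miRNAs met this call, from which nothing is read since they were chosen on the same reads. Among these hairpins, ordered from the most adult ratio down, miR-957 was 16th and miR-999 31st. The log2 ratio, computed after adding 0.5 reads to both counts, was 3.10 for miR-957 and 1.92 for miR-999, and its median over the 114 was 0.47. Both thus combined a high larval level with a ratio well below the largest of the table. miR-277, a regulator of the breakdown of branched-chain amino acids, reached 24463 adult RPM from 312 larval RPM, a ratio of 78.3.

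Among the 47 hairpins with at least 1000 RPM in the adult library, a few had ratios close to theirs. Nearest to miR-957 were miR-34, known for its part in brain ageing, with a log2 ratio of 3.06, then miR-284 with 3.17 and miR-14 with 3.19. Of these 3, miR-14 was the most abundant in the adult library, with 133097 reads. Nearest to miR-999 were miR-981 with a log2 ratio of 2.18, miR-927 with 1.60 and miR-990 with 1.46. None of these last 3 had a ratio interval that overlapped the 3.69 to 3.86 of miR-999, the closest being miR-981 at 4.30 to 4.75. Likeness was measured here over 2 libraries only.

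miR-4969, which is annotated 183 bases from miR-999 within CASK and on the same strand, was read at a far lower level. It was chosen for its position and had 10 larval and 19 adult reads. Its levels were 12.2 RPM in the larval against 11.4 RPM in the adult one, a ratio of 0.938 (0.415 to 2.26). That interval does not reach the ratio of its neighbour miR-999.

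Markers of tissues beside the brain also differed between the libraries. Of the muscle markers, miR-133 and miR-1, both were read, with summed levels of 565 RPM in the larval against 13143 RPM in the adult one, nearly all of it miR-133 (13002 adult RPM). The ratio of miR-133 was 25.1 (22.8 to 27.7). miR-1 rose less, from 47.4 to 141 RPM, a ratio of 2.98 (2.11 to 4.29). miR-210, the marker of photoreceptors, had 99.7 larval and 17586 adult RPM. The fat body list had 2 of 8 markers with reads in the larval and 6 of 8 in the adult library. Its summed levels were 1171 and 28953 RPM, nearly all of it miR-277 (24463 adult RPM) and miR-278 (4484 adult RPM). The markers read only in the adult library, miR-960, miR-961, miR-963 and miR-964, had 2 or 3 reads each. The list's miR-959 and miR-962 were at 0 in both libraries. The testis list had reads in 7 and 9 of 12 markers, summing to 137 and 36.6 RPM. Most of both sums was miR-982 (120 and 19.8 RPM), which also made the fall. Some other testis markers were higher in the adult library, such as miR-976 with 0 and 11 reads. The list's miR-977 and miR-978 were at 0 in both libraries. All 5 ovary markers were read, with sums of 59.6 and 33.6 RPM, but they did not move together. miR-311 (21 larval and 8 adult reads) and miR-312 (19 and 7) were called higher in the larval library. miR-318, which had the highest adult level of the list, had 4 and 38 reads and was called higher in the adult library. The part of these tissues in the levels of miR-957 and miR-999 was not tested. The neuronal markers, miR-124, miR-219, miR-137, miR-932 and miR-1000, were all read in both libraries, with sums of 7805 and 13229 RPM. Of these, miR-124 was lower in the adult library, at 1603 RPM after 2564 RPM, a ratio of 0.625 (0.590 to 0.662). The other 4 were higher there, with ratios from 1.68 for miR-1000, which had the highest level of the list in both libraries, to 9.59 for miR-219.

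Because RPM is a share of a fixed total, miRNAs this abundant weigh on the values of all others. The pair held 19188 larval reads, 2.33% of the library (2.30 to 2.37), and 249777 adult reads, 15.0% (14.9 to 15.1). Summed, they were 6.43 times higher in the adult library (6.34 to 6.53). Of the 174 hairpins, 105 held a larger share in the adult library, by 40.5 percentage points in sum. miR-957 alone supplied 24.1% of that gain, more than any other hairpin, with 9.79 percentage points. miR-14 supplied 17.6% and was the next, and miR-999 followed with 7.10%, or 2.88 percentage points. The gain of the pair together was 12.7 percentage points, or 31.3% of the whole gain.

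**Figure D2:**
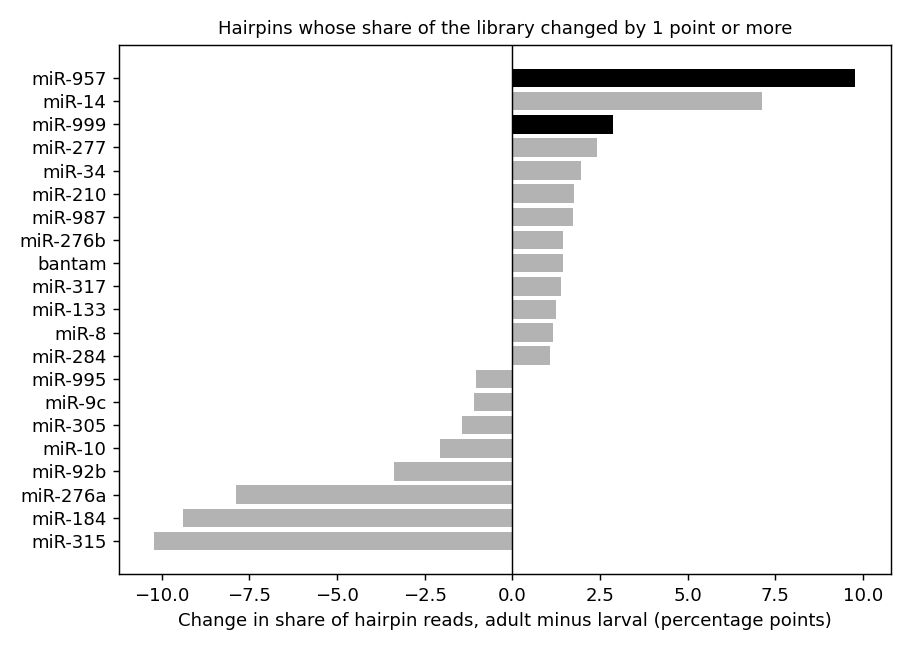
Change in the share of hairpin reads, adult minus larval, in percentage points, for the hairpins whose share changed by at least 1 point (1 library per stage). The black bars are miR-957 (9.79 points, the longest bar to the right) and miR-999 (2.88 points, the third longest to the right).

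Leaving the pair out of the totals raised every other RPM value by a factor of 1.02 in the larval against 1.18 in the adult one. Every adult-over-larval ratio then became 1.15 times as large, a shift of 0.20 on the log2 scale. The shift was 0.15 with only miR-957 left out and 0.04 with only miR-999 left out. The median log2 ratio of the compared hairpins went from 0.47 to 0.67 without the pair. With all reads there were 46 adult and 28 larval calls, and without the pair 49 (43.0% of those compared) and 27 (23.7%).

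The calls that changed were those of hairpins near a ratio of 2. miR-929 had a ratio of 1.93 with all reads and of 2.22 without the pair, and miR-281-2, which is a copy of another hairpin by name, 1.90 and 2.18. miR-1004, a mirtron (a hairpin released by splicing), had 1.79 and 2.05. These 3 joined the adult calls. miR-263a, a miRNA that protects sensory bristles, had ratios of 0.438 and 0.503 and lost its larval call. Leaving out miR-957 alone changed the calls of miR-281-2 and miR-929, and leaving out miR-999 alone changed none of the 114. Leaving the other highly abundant hairpins out of the totals as well moved ratios the opposite way, by -0.52 on the log2 scale for the 14 hairpins that were among the 10 most abundant of either library.

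The size of both ratios depended on what they were measured against, and their direction did not in the scalings tried. With the total that leaves out those 14 hairpins, miR-957 was 5.96 times and miR-999 2.63 times higher in the adult library. Measured against single hairpins that were among the 10 most abundant of both libraries, a choice made after seeing the data, the ratio of miR-957 was from 5.52 (against miR-8) to 14.8 (against miR-184). That of miR-999 was from 2.44 to 6.55 against the same hairpins. In reads, miR-957 amounted to 0.0584 times miR-184, the most abundant hairpin, in the larval library and 0.867 times in the adult library. For miR-999 these values were 0.0467 and 0.306.

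**Figure D3:**
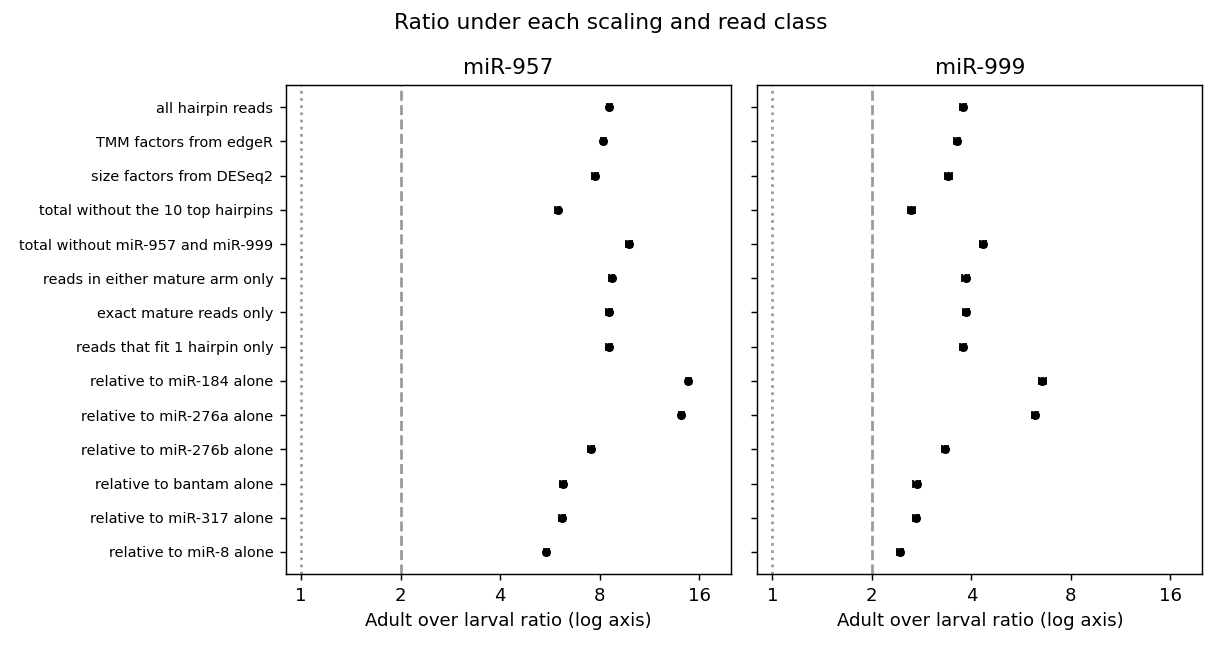
Adult over larval ratio on a log axis of miR-957 (left) and miR-999 (right) under each scaling and read class, with exact 95% intervals of their own counts (1 library per stage). The dotted line is a ratio of 1 and the dashed line the ratio of 2 needed for a call. All points lie to the right of the dashed line, from 5.52 to 14.8 for miR-957 and from 2.44 to 6.55 for miR-999.

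Nearly all reads of both hairpins came from the 3' arm. miR-957 had 10644 reads on the 3' arm and 3 on the 5' arm in the larval library, and 184114 and 11 in the adult library. The 5' arm thus gave 0.0282% of its mature reads in the larval (0.00581 to 0.0823) against 0.00597% in the adult one (0.00298 to 0.0107), with intervals that overlap. miR-999 had 8523 reads on the 3' and 7 on the 5' arm in the larval library, and 65193 and 11 in the adult library. Its 5' share was 0.0821% (0.0330 to 0.169) and 0.0169% (0.00842 to 0.0302), with intervals that do not overlap. By the rule used here a share is called different only if it also moves by at least 10 percentage points. Neither arm share did, nor did the shares of exact, variant and outside reads of the pair given below.

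The few 5' reads did not scale with the 3' reads in miR-999. Its 3' reads were 3.78 times higher in the adult library (3.69 to 3.86), while its 5' reads, at 8.51 and 6.61 RPM, had a ratio of 0.776 (0.275 to 2.36). For miR-957 the 5' reads stood at 3.65 and 6.61 RPM, a ratio of 1.81 (0.478 to 10.1), and this interval holds the 8.54 of its 3' reads. A lower share of the minor arm in the adult library was common among hairpins. Mature reads reached 100 in both libraries for 64 hairpins. Of these, 46 had a lower and 14 a higher share of the arm with fewer reads in the adult library, with medians of 2.09% in the larval against 0.620% in the adult one. In the order from the smallest share, miR-957 was 7th and miR-999 13th of 64 in the larval library, and 8th and 10th in the adult library.

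Most reads of both miRNAs equalled the annotated mature form. On the 3' arm of miR-957, 10186 larval reads were exact, or 95.7% (95.3 to 96.1), and 171520 adult reads, or 93.2% (93.0 to 93.3). On that of miR-999, 8328 larval reads were exact, or 97.7% (97.4 to 98.0), and 63303 adult reads, or 97.1% (97.0 to 97.2). Among the 64 hairpins, whose median exact share of mature reads was 63.6% in the larval against 57.6% in the adult one, miR-999 had the 4th highest share in the larval and the 2nd highest in the adult library, and miR-957 the 7th highest in both. miR-14, the next hairpin below miR-957 in the adult library, had an exact share of 56.1% in the larval against 50.8% in the adult one. bantam, below miR-14, had 75.4% and 70.0%. The hairpins just above miR-957 had higher shares than miR-957, 99.3% and 97.9% for miR-276b and 98.9% and 96.4% for miR-276a.

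**Figure D4:**
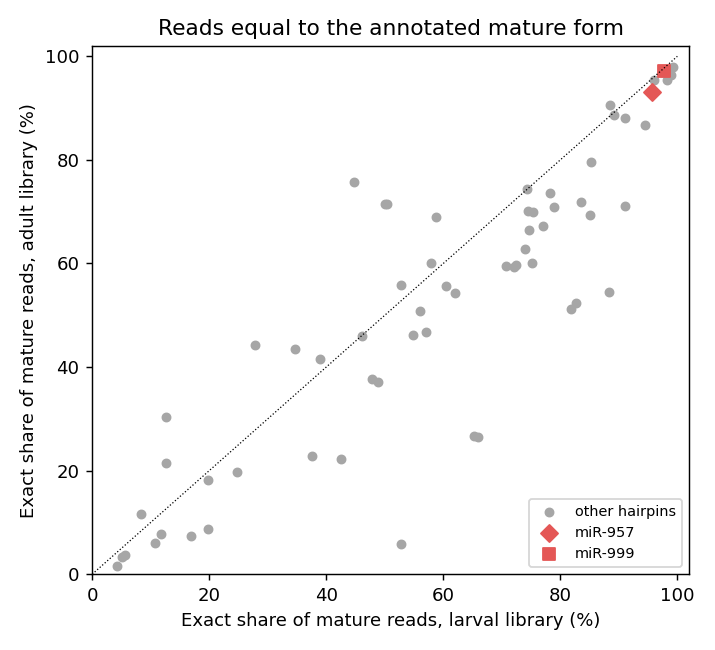
Share of mature reads equal to the annotated form, in percent, in the larval library (horizontal) and the adult library (vertical), for the 64 hairpins that reached 100 mature reads in both (1 library per stage). miR-957 (diamond, 95.7% and 93.2%) and miR-999 (square, 97.7% and 97.1%) lie in the upper right corner, and 51 of the 64 points, these included, lie below the dotted line of equal shares.

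Variant reads took a larger part in the adult library. On the 3' arm of miR-957 there were 458 variant reads in the larval library, 4.30% of the arm (3.93 to 4.71), and 12594 in the adult library, 6.84% (6.73 to 6.96). Variant reads were thus 13.6 times higher in RPM in the adult library (12.4 to 14.9), and exact reads 8.32 times (8.15 to 8.49). In miR-999 there were 195 and 1890 variant reads, 2.29% (1.98 to 2.63) and 2.90% (2.77 to 3.03) of the arm, with ratios of 4.79 for variant (4.13 to 5.58) and 3.75 for exact reads (3.67 to 3.84). The difference had the direction of most hairpins, since 51 of the 64 had a lower exact share in the adult library. The median change was -4.80 percentage points, and that of miR-957 was -2.54 and that of miR-999 -0.60. The deposited counts do not say which ends or bases differ in the variants.

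Reads of the hairpin outside both mature arms were rare. miR-957 had 11 such reads in the larval library, 0.103% of its hairpin reads (0.0515 to 0.185), and 438 in the adult library, 0.237% (0.216 to 0.261). Their level was 19.7 times higher in the adult library (10.9 to 39.7). miR-999 had 0 of 8530 in the larval library. A limit of 3 reads for a count of 0 allows a share of up to 0.0352%, and the exact interval ends at 0.0432%. Its 10 adult reads of this kind made 0.0153% (0.00735 to 0.0282). That share lies under both limits, so no difference in share was detectable with these counts. Their level was 6.01 RPM in the adult library, 1.65 times that of 3 larval reads, and the ratio against the larval count of 0 had a lower end of 1.11. Over the 64 hairpins the median share of such reads was 0.656% in the larval against 1.14% in the adult one, and 47 of them had a higher share in the adult library.

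**Figure D5:**
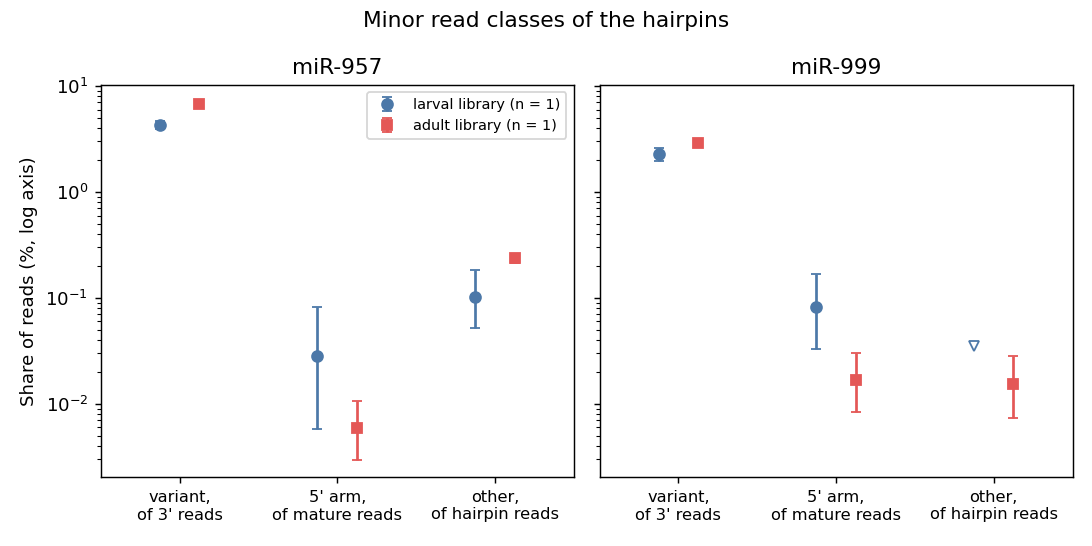
Share of variant reads on the 3' arm, of 5' reads among mature reads and of reads outside both arms, in percent on a log axis, for miR-957 (left) and miR-999 (right) in the larval (blue circles) and adult library (red squares), with exact 95% intervals (1 library per stage). The open triangle marks 0.0352%, the share that 3 reads would make, as the limit for a count of 0. In both miRNAs the variant share was the highest class, at 4.30% and 6.84% for miR-957 and at 2.29% and 2.90% for miR-999.

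The pair also weighed on summaries of whole libraries. It supplied 3.07% of all 3' reads in the larval against 18.0% in the adult one. The share of exact reads among all mature reads was 77.2% in the larval against 76.5% in the adult one with the pair counted, and 76.7% and 73.2% without it. The share of 3' reads was 77.8% and 86.9% with the pair and 77.3% and 84.5% without it. The gap in the exact share between the libraries thus went from under 1 percentage point to over 3 when these 2 hairpins were left out. None of the mature reads of miR-957 or miR-999 fitted another hairpin in either library, so their own counts do not depend on how shared reads were assigned.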

How the data were processed

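The authors deposited raw read counts per annotated hairpin for each library, split per the file headers into 5' arm, 3' arm and other reads, with exact and uniquely fitting reads apart. The authors' deposited comparison table gives RPM values and a signed fold change. The submitters' processing notes name CASAVA 1.8 and the build dm3. The aligner, counter and miRNA release were not given in the sources used here. Candidate hairpin lists and the authors' p-values were not used.

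Here RPM was computed over all hairpin reads. Hairpins with at least 20 reads over both libraries and 10 RPM in either were compared. Intervals are exact Clopper-Pearson 95% binomial intervals, conditional on the summed count for ratios (SciPy 1.17.1). The call rule was tested on simulated data. These held counting error only, so the test cannot show how calls would vary between replicate libraries. Alternative scalings used edgeR 4.0.16 (TMM) and DESeq2 1.42.0 (size factors), without any test. Positions come from Ensembl release 115 (BDGP6) and were not combined with dm3. The miRNAs and lists were chosen with earlier results of these data known. Named hairpins are the 2 above and the 2 below each miRNA in level, the 3 nearest in ratio, those whose calls changed, the tissue markers, and miR-14, miR-277 and miR-184. miR-4969 was added for its position. Sequences of the mature miRNAs are not used here.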

Additional observations from a re-analysis of the deposited data

How the results depend on the processing

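No paired analysis was possible because each stage has 1 library. Both miRNAs were higher in the adult library, at least 2-fold, under every alternative run. For miR-957 and miR-999 the ratios were 8.20 and 3.62 with TMM factors, 7.72 and 3.41 with DESeq2 size factors, 5.96 and 2.63 with a total that leaves out the 14 hairpins in the top 10 of either stage, and 9.83 and 4.34 with the total without the pair. Against single hairpins, chosen after seeing the data, they were 14.8 and 6.55 (miR-184), 14.1 and 6.24 (miR-276a), 7.54 and 3.33 (miR-276b), 6.19 and 2.73 (bantam), 6.16 and 2.72 (miR-317) and 5.52 and 2.44 (miR-8). Mature reads alone gave shares of 1.33% and 11.5% for miR-957 in the larval and adult library, 1.06% and 4.08% for miR-999, and 2.39% and 15.6% for both. Exact reads alone gave 1.64% and 14.0%, 1.34% and 5.18%, and 2.99% and 19.2%. With reads that fit 1 hairpin only, the adult shares were 11.2%, 3.97% and 15.2%, and the larval share of both was 2.37%. Among exact reads there were 2.71 adult reads of miR-957 per read of miR-999, and exact reads were 92.9% of all adult hairpin reads of miR-957. The counts of called hairpins stayed within 1.5 times under each alternative, but leaving those 14 hairpins out of the total moved the split from 46 adult and 28 larval calls (62.2% adult) to 40 and 41 (49.4% adult). The 5' reads, 3 to 11 per library, limit the precision of the arm shares.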
